A study of Homo sapiens with 6 samples.

Results

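The AP-1 transcription factor family was taken as 8 genes, FOS, FOSB, FOSL1, FOSL2, JUN, JUNB, JUND and ATF3, of 78932 gene identifiers in the count table. The genes were matched from Ensembl identifiers to symbols, and all 8 were found and passed the filter on low counts. The family was chosen by its measured fold changes between docetaxel and control, known from earlier results of these libraries. The members' values in that comparison are therefore a description, without p-values.

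The cells are labelled HCC1937, the name of an established breast cancer line known to carry a BRCA1 mutation and classed as triple negative. Docetaxel, a microtubule-stabilising drug of the taxane class, was given at 8 nM for 24 h to the cells of 3 libraries. From control cells, also at 24 h, 3 further libraries were made. Replicates are labelled biological, but separate cultures or days are not named, so p-values here measure only the spread between these libraries, which may be technical. What the control cells received is not stated either. In bulk RNA, fewer cells expressing a gene and less RNA per cell cannot be told apart.

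AP-1 is a dimer of basic leucine zipper proteins that binds the DNA element TGACTCA. JUN proteins pair with each other or with FOS proteins, while FOS proteins need a JUN partner to form a stable dimer. ATF3 pairs with JUN proteins and also with itself, and it is known as a stress-induced gene. Several members are immediate early genes, transcribed within minutes of a growth factor or stress signal from transcription factors that MAP kinases phosphorylate. In breast cancer lines of the basal type, FOSL1 is known as a prominent AP-1 component.

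With docetaxel, FOS, FOSB, JUN and JUNB were higher, at 4.17-fold, 3.99-fold, 2.85-fold and 1.67-fold over control. JUND was 1.17-fold higher, a difference that was absent with offsets for transcript GC content and length. FOSL1, FOSL2 and ATF3 had overlapping values in the docetaxel and control libraries. By edgeR's quasi-likelihood test at an adjusted p under 0.05, 5 of the 8 members were called higher and 0 lower. Of the 18040 genes tested, 9.14% were called higher and 7.82% lower, which was 1649 and 1410 genes. When libraries were scaled by total counts alone these numbers were 1096 and 1866, so that the higher share of all calls was 37.0% in place of 53.9%. Since this comparison chose the family, nothing is read from the members' share.

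Total counts ranged from 38622062 to 39181848 in docetaxel libraries and from 39033097 to 41675186 in control libraries (exact two-sided permutation p = 0.3, with 0.1 the smallest possible for 3 against 3). Of 13 epithelial markers, KRT7, KRT8 and KRT18 were abundant and, like KRT17, called higher by edgeR, but EPCAM had 0 to 8 reads per library, and KRT5, KRT14, KRT19, CLDN3, ESRP1 and TP63 had at most 12. CDH1, which encodes E-cadherin, had 15, 30 and 40 reads in the docetaxel libraries and 29, 16 and 34 reads in the control libraries. Several defining epithelial markers were thus absent or nearly so in cells labelled as a breast cancer line, and the label could not be checked further with these files. Of the 6 epithelial markers tested 4 were called higher and 0 lower, beside 9.14% and 7.82% of all tested genes. With offsets for GC content and transcript length, 2 epithelial markers were called higher, beside 2.81% of all genes. KRT18 (edgeR adjusted p = 0.64) and KRT17 (0.073) were then not called. The summed level of the epithelial list was 3313 to 3431 CPM (counts scaled to library size) in docetaxel libraries and 2783 to 2915 CPM in control libraries. That of 9 mesenchymal markers, mostly VIM and COL1A1, was 498.1 to 509.1 CPM in docetaxel libraries and 506.8 to 513.1 CPM in control libraries. VIM averaged 355.8 ± 3.0 CPM with docetaxel and 368.7 ± 4.8 CPM in control (SD, n = 3 each). Immune cell markers summed to 3.54 to 4.48 CPM in docetaxel libraries and 1.74 to 2.92 CPM in control libraries, with 7 of 10 too low to test, PTPRC at 1 read in all and MS4A1 at 0. CD14 made up most of this sum, at 2.52 ± 0.64 CPM with docetaxel and 1.48 ± 0.17 CPM in control (SD, n = 3 each), and was called 1.70-fold higher (edgeR adjusted p = 0.038), but not with offsets (0.18). The part of these markers in the AP-1 results was not tested.

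The promoters of the members are shown because FOS, FOSB, JUN and JUNB were higher together while their relatives FOSL2 and JUND were not, or hardly so. RefSeq promoter windows (GRCh38.p14) matched 7 of the 8 genes, all but FOSL1, and ATF3 had a window at each of its 2 start sites. The 120 bases before the RefSeq start of each of these genes but ATF3 are printed 5′ to 3′ on the gene's strand. For FOS, FOSL2 and JUN that start lies inside the GENCODE 29 gene span, and for FOSB and JUND at its edge. Capitals mark TGACGT, the core of the cyclic AMP response element, and TGACATCA, a variant of it known from the JUN promoter, on either strand. FOS lies on the plus strand, with the printed stretch at chr14:75278708-75278827. That of FOSB is at chr19:45467876-45467995, plus strand, that of JUN at chr1:58784048-58784167, minus strand, and that of JUNB at chr19:12791366-12791485, plus strand. The stretch of FOSL2 is at chr2:28392738-28392857, plus strand, and that of JUND at chr19:18281623-18281742, minus strand.
FOS: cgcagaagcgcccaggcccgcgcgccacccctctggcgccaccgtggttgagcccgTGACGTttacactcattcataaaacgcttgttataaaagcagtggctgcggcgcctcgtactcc
FOSB: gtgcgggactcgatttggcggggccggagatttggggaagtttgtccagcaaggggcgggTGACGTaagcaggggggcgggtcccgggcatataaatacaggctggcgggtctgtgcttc
JUN: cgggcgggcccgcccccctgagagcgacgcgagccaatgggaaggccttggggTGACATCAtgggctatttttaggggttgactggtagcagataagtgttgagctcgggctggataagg
JUNB: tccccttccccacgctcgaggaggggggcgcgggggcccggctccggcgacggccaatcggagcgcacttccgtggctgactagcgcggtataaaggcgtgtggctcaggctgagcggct
FOSL2: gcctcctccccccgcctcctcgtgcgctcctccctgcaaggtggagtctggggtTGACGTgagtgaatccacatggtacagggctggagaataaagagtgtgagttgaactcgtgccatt
JUND: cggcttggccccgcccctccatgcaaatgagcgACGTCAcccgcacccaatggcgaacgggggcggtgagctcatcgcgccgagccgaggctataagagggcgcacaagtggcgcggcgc
TGACGT began 64 bases before the start in FOS, 60 bases before it in FOSB and 66 bases before it in FOSL2. JUND had it on the opposite strand, between 87 and 82 bases before the start. JUND also had the full palindrome TGACGTCA between 200 and 193 bases before the start, outside the printed stretch. In the 250 bases before the start, TGACGT, which lies within TGACGTCA, was found on either strand in 4 of the 8 member windows and in 7.10% of 35116 windows of all genes. TGACATCA was found in JUN, from 67 to 60 bases before the start, and in ATF3 at the more upstream of its starts, against 2.38% of all windows. JUNB held neither. CCAAT began 67 bases before the start in JUNB, 87 in JUN and 74 in JUND, and was on the opposite strand in ATF3, and 32.0% of all windows hold it. TATAAA began 33 bases before the start in FOS, 30 in FOSB and 31 in JUNB, and 230 at the more downstream start of ATF3. It was in 4 of the 8 member windows and in 10.7% of all, and it was not found in the windows of JUN, FOSL2 or JUND. TGACTCA was in 0 member windows and in 4.20% of all windows, and the CArG box, which serum response factor binds, was in 0 member windows and in 1.16% of all. A match describes the letters only, and these windows end 250 bases before the start, so motifs farther upstream were not searched. The part of these motifs in the members' changes was not tested.

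FOS (ENSG00000170345, chromosome 14, 75278774 to 75282230, plus strand, GENCODE 29 on GRCh38), which encodes the founding FOS protein, had 2629, 2583 and 2790 reads in the docetaxel libraries and 652, 723 and 680 reads in the control libraries. Scaled to library size, these were 68.3, 67.8 and 72.3 CPM with docetaxel and 16.5, 17.0 and 16.5 CPM in control. The groups were far apart and each was tight, at 69.5 ± 2.5 CPM with docetaxel and 16.7 ± 0.3 CPM in control (SD, n = 3 each). This put FOS 2.06 ± 0.07 (SE) higher on the log2 scale, at rank 16 of 18040 tested genes from the highest fold change. Leaving out any 1 library gave log2 fold changes from 2.03 to 2.07.

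FOSB (ENSG00000125740, chromosome 19, 45467995 to 45475179, plus strand), a close relative of FOS that also gives a truncated form by splicing, had 217, 339 and 382 reads in the docetaxel libraries and 83, 95 and 73 reads in the control libraries. This was 5.64, 8.89 and 9.90 CPM with docetaxel and 2.11, 2.23 and 1.77 CPM in control. Docetaxel replicate 1 was the lowest of its group, yet above every control library. FOSB was the least abundant and the least precise member, with a coefficient of variation of 27.3% in docetaxel libraries and 11.7% in control libraries. Its log2 fold change was 2.00 ± 0.19 (SE), and without 1 library it lay between 1.83 and 2.18. ERCC1, a DNA repair gene on the opposite strand, overlaps FOSB and had 2049 reads on average in docetaxel libraries and 2170 in control libraries, with a log2 fold change of 0.01 (edgeR adjusted p = 0.93). The strand setting of the counting is not given in the sources used here, so reads in the shared stretch could have gone to either gene or to none.

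JUN (ENSG00000177606, chromosome 1, 58780788 to 58784327, minus strand), the main partner of FOS proteins, had 2382, 2401 and 2446 reads in the docetaxel libraries and 827, 874 and 1016 reads in the control libraries. This was 61.9, 63.0 and 63.4 CPM with docetaxel and 21.0, 20.5 and 24.6 CPM in control. The docetaxel libraries were nearly alike, with a coefficient of variation of 1.20%, while in control it was 10.2%, with replicate 3 the highest. The log2 fold change was 1.51 ± 0.07 (SE), from 1.46 to 1.60 without 1 library, and JUN ranked 41 of the tested genes from the highest fold change.

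JUNB (ENSG00000171223, chromosome 19, 12791496 to 12793315, plus strand), which pairs like JUN but is a weaker activator of many targets, had 178.0, 180.0 and 172.0 CPM in the docetaxel libraries and 105.6, 103.1 and 107.9 CPM in the control libraries. The mean was 176.7 ± 4.1 CPM with docetaxel and 105.5 ± 2.4 CPM in control (SD, n = 3 each). On the log2 scale the difference of 0.74 ± 0.04 (SE) ranked 445, and it was 0.72 to 0.76 without 1 library. Although the fold was smaller than in JUN, the mean of JUNB differed by more CPM, since its level was already high in control. HOOK2, a microtubule-binding adaptor gene on the opposite strand, overlaps JUNB and had a log2 fold change of 0.07 (edgeR adjusted p = 0.58). ERCC1 and HOOK2 were chosen after their values were seen.

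JUND (ENSG00000130522, chromosome 19, 18279760 to 18281622, minus strand), known for steady expression in unstimulated cells, had 133.1, 130.2 and 128.2 CPM in the docetaxel libraries and 117.2, 100.1 and 118.3 CPM in the control libraries. The groups did not overlap, but control replicate 2 stood well below the other control libraries. The log2 fold change was 0.22 ± 0.05 (SE), and 0.15 without control replicate 2. JUND was also the most GC-rich member, and its value with GC and length offsets is given further on.

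FOSL1 (ENSG00000175592, chromosome 11, 65892049 to 65900573, minus strand), which encodes FRA1, had 11.5, 12.3 and 13.0 CPM in the docetaxel libraries and 10.4, 11.9 and 11.9 CPM in the control libraries. FOSL2 (ENSG00000075426, chromosome 2, 28392448 to 28417312, plus strand), which encodes FRA2, had 102.9, 108.7 and 109.9 CPM in the docetaxel libraries and 104.5, 101.3 and 107.6 CPM in the control libraries. ATF3 (ENSG00000162772, chromosome 1, 212565334 to 212620777, plus strand) had 34.6, 40.3 and 34.0 CPM in the docetaxel libraries and 31.7, 34.8 and 34.4 CPM in the control libraries. In all 3 genes the groups overlapped, and none was called. Their log2 fold changes were 0.11 ± 0.11 for FOSL1, 0.04 ± 0.05 for FOSL2 and 0.11 ± 0.07 for ATF3 (SE). The sign of FOSL1 and FOSL2 turned with GC and length offsets, and that of FOSL2 also with scaling by total counts alone. In ATF3 the docetaxel mean rested on replicate 2, and without that library the log2 fold change was 0.02.

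Docetaxel libraries all lay above control libraries in 5 members, and in 17.0% of all tested genes. The median log2 fold change of the 8 members was 0.48, and that of all tested genes 0.01.

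**Figure D1:**
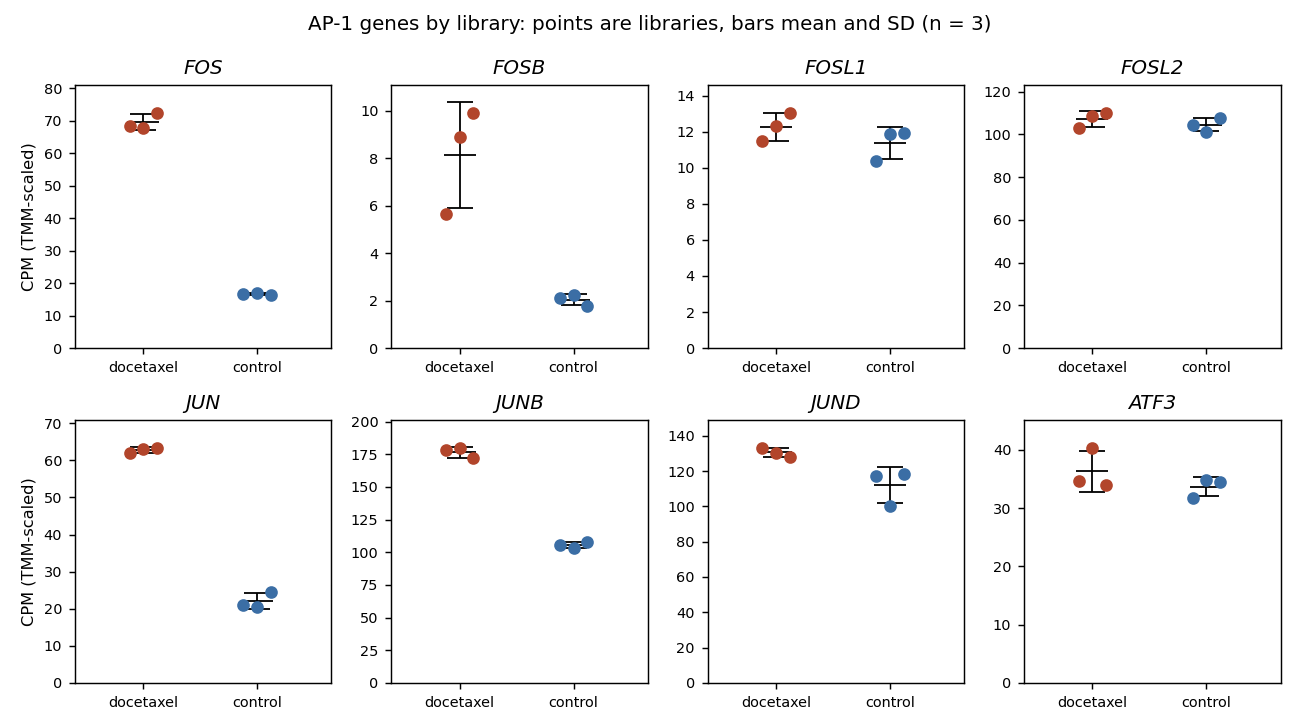
CPM (TMM-scaled, y axis from 0) of the 8 AP-1 genes in docetaxel libraries (left of each panel) and control libraries (right), where points are libraries and bars the mean with SD (n = 3). FOS, FOSB, JUN and JUNB lie far above their control values, JUND slightly above, and FOSL1, FOSL2 and ATF3 overlap.

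The members differed in GC content, and across 16421 tested genes with a known GC content the fold change went up with it (Spearman's rho = 0.54 across genes, which share the 6 libraries and are not independent). These genes were split by GC content into 5 equal groups, whose median log2 fold changes were -0.19, -0.08, 0.01, 0.10 and 0.18 in order of GC. The longest transcript of JUND had 69.7% GC and that of JUNB 64.9%, both in the highest group, with FOSL1 at 60.0%. JUND was thus 0.04 above its group's median on the log2 scale, and JUNB 0.56 above it. FOS, with 52.6% GC, FOSB, with 57.7%, and JUN, with 56.7%, belonged to group 4, whose median was 0.10. They exceeded that median by 1.96, 1.90 and 1.41 on the log2 scale. FOSL2, with 53.3%, stood 0.06 below the same median.

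With offsets for GC content and transcript length, taken from a loess curve per library, the log2 fold change of FOS was 1.99 ± 0.06, that of FOSB 1.87 ± 0.19 and that of JUN 1.40 ± 0.06 (SE). JUNB kept a difference of 0.53 ± 0.04, smaller than without offsets. JUND was at -0.03 ± 0.04, so neither its direction nor its call held. FOSL1 was at -0.05 ± 0.11 and FOSL2 at -0.01 ± 0.04, while ATF3 was at 0.12 ± 0.07. With offsets 4 members were called higher and 0 lower, where 2.81% of 16421 genes were called higher and 1.81% lower. The trend with GC content lies between the docetaxel and control groups. The offsets may thus remove a technical trend or a real difference, which cannot be told apart here.

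**Figure D2:**
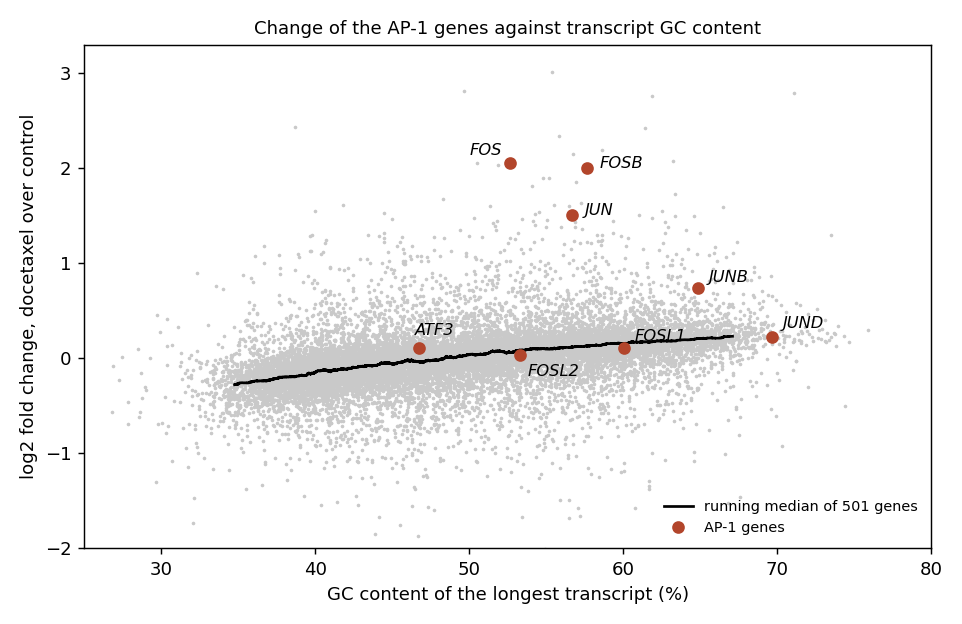
Log2 fold change, docetaxel over control, against the GC content of the longest transcript in percent, for tested genes (grey), with their running median (black line) and the 8 AP-1 genes (red). FOS, FOSB, JUN and JUNB lie above the line, while JUND, at 69.7% GC, and FOSL1 lie close to it.

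**Figure D3:**
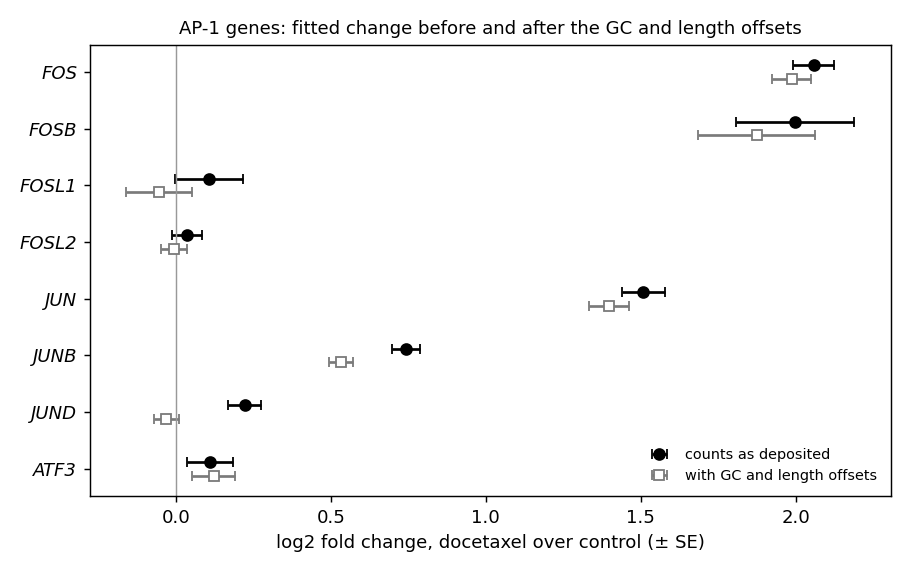
Log2 fold change, docetaxel over control, of the 8 AP-1 genes with SE bars, from counts as deposited (filled circles) and with GC and length offsets (open squares). With offsets FOS, FOSB and JUN stay near 1.99, 1.87 and 1.40, JUNB is at 0.53, and JUND moves to -0.03.

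Levels of different genes were compared as CPM per kilobase of the deposited gene length. In docetaxel libraries JUNB led at 96.5 ± 2.3 CPM per kilobase, above JUND at 67.7 ± 1.3, without overlap. JUN, at 17.3 ± 0.2, and FOS, at 16.8 ± 0.6, came next and overlapped each other. FOS stood above FOSL2, which was at 15.0 ± 0.5. ATF3 was at 9.08 ± 0.87, FOSL1 at 6.51 ± 0.41 and FOSB at 1.47 ± 0.40.

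In control libraries JUND and JUNB were the most abundant members, at 58.0 ± 5.3 and 57.7 ± 1.3 CPM per kilobase (SD, n = 3), and their ranges overlapped. FOSL2 followed at 14.6 ± 0.4 and ATF3 at 8.41 ± 0.41. JUN, at 6.08 ± 0.62, and FOSL1, at 6.04 ± 0.47, overlapped, and below them, and so below FOSL2, came FOS at 4.02 ± 0.07 and FOSB at 0.367 ± 0.043. The order within 1 group is not the contrast that chose the family. The deposited length of FOS was 4146 bases and its longest GENCODE 29 transcript 2158, and for ATF3 the lengths were 3998 and 2103. Per kilobase of the longest transcript, FOS was at 32.2 in docetaxel libraries and ATF3 at 17.3, so the order of the middle members depends on the length used. JUNB and JUND as the highest and FOSB as the lowest did not change place with the length.

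Summed over the 8 members, the level was 230.3 ± 2.5 CPM per kilobase in docetaxel libraries and 155.2 ± 7.0 in control libraries (SD, n = 3 each), a ratio of 1.48. JUNB made up 41.9 ± 0.6% of that sum with docetaxel and 37.2 ± 0.9% in control, and JUND 29.4 ± 0.5% with docetaxel and 37.3 ± 1.9% in control. FOS made up 7.28 ± 0.33% with docetaxel and 2.60 ± 0.16% in control, and JUN 7.52 ± 0.13% with docetaxel and 3.92 ± 0.27% in control. Within the 4 FOS genes alone, FOS held 42.2 ± 1.1% with docetaxel and 16.1 ± 0.5% in control, and FOSL2 held 37.7 ± 0.6% with docetaxel and 58.3 ± 1.5% in control. FOSL1 held 16.4 ± 0.3% of the FOS genes with docetaxel and 24.1 ± 1.5% in control, although its own CPM overlapped between the groups. With the longest transcript as length, FOS held 55.8% of the FOS genes with docetaxel and 25.2% in control. These are relative amounts of RNA, not of protein or dimers.

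**Figure D4:**
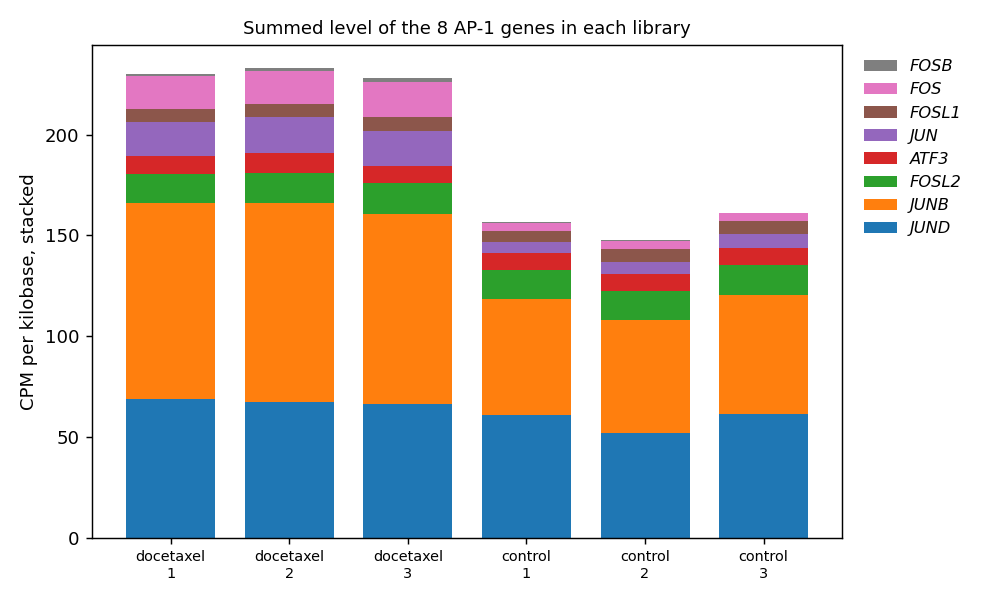
Level of each AP-1 gene in CPM per kilobase of deposited gene length, stacked for each docetaxel library (left 3 bars) and control library (right 3 bars). The docetaxel bars total 227.9 to 233.0 and the control bars 147.5 to 161.3, with JUNB and JUND the tallest segments in every library.

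The profiles of the members over the 6 libraries were set against 10293 other tested genes with a symbol and at least 5 CPM on average, by the Euclidean distance between log2(CPM + 0.5) values centred on each gene's mean. FOS and FOSB were 0.66 apart and FOS and JUN 0.69, closer than any of those 10293 genes was to FOS. The family was chosen by its fold changes in these libraries, so nothing is read from the closeness of its members. Of those other genes the nearest to FOS was EGR1, a zinc finger immediate early factor, at a distance of 1.15. It had 24.1, 24.0 and 26.4 CPM in the docetaxel libraries and 2.89, 4.16 and 2.18 CPM in the control libraries. GDF15, a secreted stress cytokine, was the nearest of those other genes to JUN and FOSB, at 0.79 and 1.26. JUNB had several closer neighbours, CDKN1A, the cell cycle inhibitor p21, at 0.16, PDE2A, a cyclic nucleotide phosphodiesterase, at 0.16 and DUSP1, a phosphatase of MAP kinases, at 0.19. Distances grow with the size of the change, and 6 libraries in 2 groups make many profiles alike.

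The factors that bind FOS or JUN promoters were a separate list of 13 genes, of which 12 were tested. By edgeR 3 were called higher and 3 lower, with a median log2 fold change of -0.12. Over all tested genes 9.14% were called higher and 7.82% lower, with a median of 0.01. With GC and length offsets these shares were 2.81% and 1.81%. SRF, the serum response factor, averaged 64.3 ± 1.3 CPM with docetaxel and 55.3 ± 2.1 CPM in control (SD, n = 3 each), 0.22 higher on the log2 scale (edgeR adjusted p = 0.0059). MRTFA, its coactivator, was 1.15-fold higher (edgeR adjusted p = 0.0064), a call lost without docetaxel replicate 3 (0.059). ATF1, a CREB relative, fell by 0.49 on the log2 scale (edgeR adjusted p = 0.0046). ELK4, a partner of SRF, fell by 0.23 (0.0098), but its call was lost when control replicate 1 (0.063) or docetaxel replicate 3 (0.074) was left out. SRF and MRTFA have 60.9% and 61.3% GC and ATF1 and ELK4 34.2% and 38.5%. Once GC and length offsets were used, 0 of the list were called higher and 1, ATF1, lower, at a log2 fold change of -0.26 (edgeR adjusted p = 0.016), and ELK4 was at 0.02.

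Of the MAP kinase cascade, whose ERK, JNK and p38 arms signal to AP-1, 21 of 22 genes were tested. Their median log2 fold change was -0.03, and 3 were called higher and 3 lower, beside 9.14% and 7.82% of all tested genes. MAP2K2, which activates ERK, was 1.18-fold higher (edgeR adjusted p = 8.53e-05), MAP3K11, which acts upstream of JNK, 1.19-fold (0.00069) and MAPK7, which encodes ERK5, 1.23-fold (0.0027). MAP3K20, a kinase known to respond to ribosome stress, fell by 0.35 on the log2 scale (edgeR adjusted p = 0.0025). With GC and length offsets none of these 4 was called, at edgeR adjusted p of 0.18, 0.085, 0.12 and 0.21. Of the whole list 0 were then called higher and 1, MAP2K7, lower, beside 2.81% and 1.81% of all genes. Without offsets MAP2K7 was not called, averaging 96.1 CPM in docetaxel libraries and 96.1 CPM in control libraries. Activity of these kinases lies in their phosphorylation, which RNA counts do not measure.

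Among 20 other basic leucine zipper genes that can pair with or resemble AP-1 proteins, 17 were tested. Their median log2 fold change was 0.08, and 2 were called higher and 2 lower, beside 9.14% and 7.82% of all tested genes. BATF3, which pairs with JUN proteins, had 8.03, 5.46 and 7.51 CPM in the docetaxel libraries and 4.72, 4.35 and 5.19 CPM in the control libraries, 0.56 higher on the log2 scale (edgeR adjusted p = 0.0115). It kept its call with GC and length offsets, at 0.59 (0.017), but lost it when control replicate 2 (0.073), docetaxel replicate 1 (0.090) or docetaxel replicate 3 (0.079) was left out. ATF2, which pairs with JUN, fell by 0.41 on the log2 scale (edgeR adjusted p = 0.00061), and with offsets its log2 fold change was -0.18 and not called (0.18). MAFK, a small MAF protein, was 1.18-fold higher (edgeR adjusted p = 0.0038), also not called with offsets (0.70). NFE2L2, which encodes NRF2, fell by 0.18 (edgeR adjusted p = 0.028), and it lost its call with offsets (0.14) and when control replicate 1 (0.057), control replicate 2 (0.13) or docetaxel replicate 1 (0.069) was left out.

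The proteins that bind AU-rich elements, which speed or slow the decay of short-lived messages such as that of FOS, were all tested. The median log2 fold change of these 6 genes was 0.07. Beside 9.14% and 7.82% of all tested genes, 1 was called higher and 0 lower. It was KHSRP, a decay factor, 0.15 higher on the log2 scale (edgeR adjusted p = 0.0074), which with GC and length offsets was at a log2 fold change of 0.00 (0.99). ZFP36, the decay factor tristetraprolin, averaged 15.0 ± 1.3 CPM with docetaxel and 13.2 ± 1.2 CPM in control (SD, n = 3 each, edgeR adjusted p = 0.29). ELAVL1, which stabilises such messages, had a log2 fold change of 0.06 (edgeR adjusted p = 0.40) and with offsets of 0.12 (0.042). It was the 1 member called higher then, beside 2.81% of all genes. Its call was lost with offsets and a replicate block together (0.086). ZFP36L2, a relative of ZFP36, was at 0.09 (0.53). The 4 ubiquitin ligase subunits that mark JUN for degradation were all tested. Their median log2 fold change was -0.25, beside 0.01 over all tested genes. With GC and length offsets it was -0.09, and 0 were called. Without offsets 0 were called higher and 1 lower, beside 9.14% and 7.82% of all tested genes. That was FBXW7, with a log2 fold change of -0.41 (edgeR adjusted p = 0.047), which was not called in 11 of 16 alternative fits and was at an adjusted p of 0.34, 0.079, 0.086 and 0.20 without control replicate 2 or 3 or docetaxel replicate 2 or 3. ITCH was not called (0.12), but without docetaxel replicate 1 it was (0.0016). COP1 and DET1, which work in 1 ligase complex, were at log2 fold changes of 0.11 (edgeR adjusted p = 0.27) and -0.21 (0.80).

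Of 29 known AP-1 target genes 19 were tested, with a median log2 fold change of 0.05. Among them 3 were called higher and 1 lower, beside 9.14% and 7.82% of all tested genes. The genes not tested included the collagenase and stromelysin genes MMP1, MMP3, MMP10 and MMP13 and the chemokine CXCL8, each with at most 2 reads in any library. HMOX1, which encodes heme oxygenase 1, averaged 66.5 ± 1.1 CPM with docetaxel and 52.1 ± 2.6 CPM in control (SD, n = 3 each). It was 1.28-fold higher (edgeR adjusted p = 7.71e-05), and also with GC and length offsets (0.013). IL11, a cytokine, was low, at 1.88 ± 0.47 CPM with docetaxel and 0.992 ± 0.160 CPM in control (SD, n = 3 each), 0.92 higher on the log2 scale (edgeR adjusted p = 0.032). It lost its call with offsets (0.13) and when control replicate 1 (0.067), control replicate 2 (0.15), docetaxel replicate 1 (0.19) or docetaxel replicate 2 (0.074) was left out. CCND1, which encodes cyclin D1, had a log2 fold change of -0.18 (edgeR adjusted p = 0.027), not called without control replicate 2 (0.22) or 3 (0.053) or docetaxel replicate 2 (0.15) or 3 (0.12). With offsets 1 target, HMOX1, was called higher and 3, CCND1, TIMP1 and TGFB1, lower. Over all genes 2.81% were called higher and 1.81% lower with offsets. Without offsets TIMP1 and TGFB1 were not called, at log2 fold changes of -0.04 (edgeR adjusted p = 0.56) and -0.02 (0.85).

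Among 14 other immediate early genes 11 were tested, with a median log2 fold change of 0.24, beside 0.01 over all tested genes. Of the 11, 5 were called higher and 2 lower, beside 9.14% and 7.82% of all tested genes. EGR1 stood 8.05-fold higher (edgeR adjusted p = 1.64e-11), above every AP-1 gene. IER2 was 1.40-fold higher (edgeR adjusted p = 1.73e-08), IER5 1.20-fold (0.00084) and NR4A1, an orphan nuclear receptor, 1.24-fold (0.0028). After adding the offsets 3 were called higher and 1, MYC, lower, beside 2.81% and 1.81% of all genes. NR4A1 was then not called (edgeR adjusted p = 0.14). With offsets the median of these 11 genes came to 0.14 on the log2 scale, and that of all genes to 0.01. MAP2K7, TIMP1, TGFB1 and MYC were named after their values were seen. EGR2, EGR3 and EGR4 had at most 8 reads in any library.

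**Figure D5:**
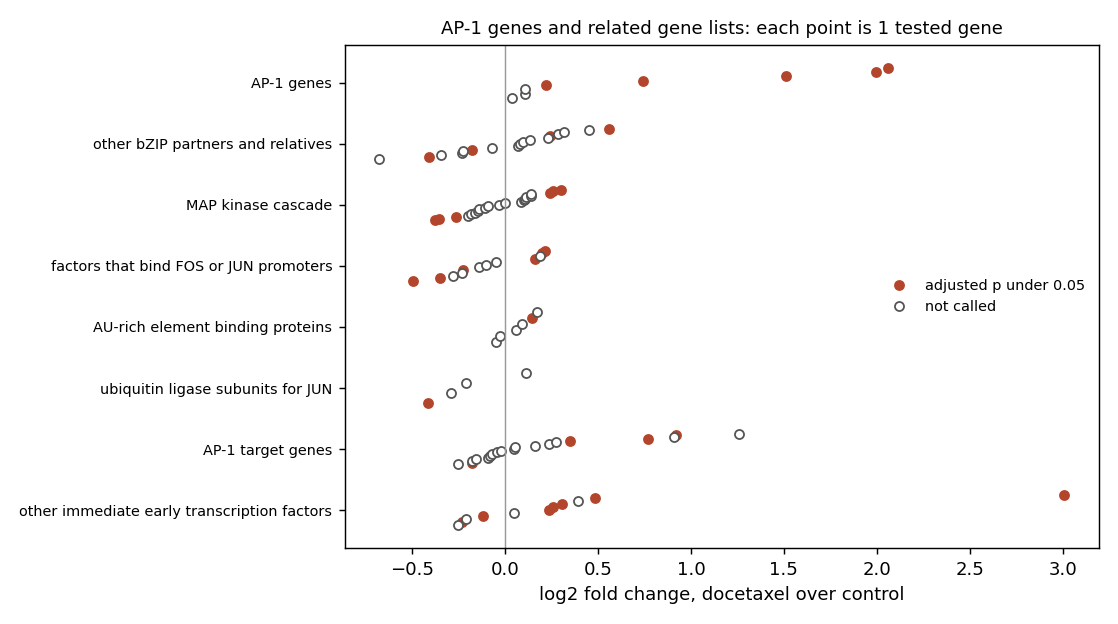
Log2 fold change, docetaxel over control, of each tested gene (1 point) of the AP-1 family and of 7 related lists, filled where edgeR's adjusted p was under 0.05 and open where it was not. FOS and FOSB, near 2, and EGR1, at 3.01, stand apart at the right, while most genes of the kinase, promoter factor and target lists lie within 0.5 of 0.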

How the data were processed

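Poly(A)-enriched RNA of 6 libraries, 3 docetaxel and 3 control, was sequenced as paired reads of 150 bases, per the labels. For all libraries together the authors deposited raw counts of reads for each gene, beside a gene length column. Counting used featureCounts 2.0.1 on GRCh38, and reports MultiQC 1.11, per the submitters' processing notes. Aligner, annotation release, strand setting and treatment of multi-mapping reads were not given in the sources used here, so counts of overlapping genes and of near-identical copies are uncertain. Columns were matched to samples by library name. Symbols matched 42179 of 78932 rows, and positions, transcript length and GC content (known for 91.0% of tested genes) came from GENCODE 29.

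Groups were compared with edgeR 4.0.16 in R 4.3.3: filterByExpr, TMM scaling, robust glmQLFit and two-sided glmQLFTest, with Benjamini-Hochberg adjustment over 18040 genes and calls at an adjusted p under 0.05. The SE is the size of the log2 fold change divided by the square root of the test's F. CPM are TMM-scaled. The script was tested on simulated data. Alternatives were scaling by RLE, by upper quartile or by library size, limma-voom (limma 3.58.1), DESeq2 1.42.0, no filter, at least 1 CPM in 3 libraries as the filter, a replicate block, loess offsets (span 0.5) on GC content and log2 transcript length, these with the block, leaving out each library, and the longest transcript as length.

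The family, the gene lists and the tests were chosen with earlier results of these data known. Named were all 8 members, up to 4 genes with the smallest p from each list, and the 3 nearest profiles to each of FOS, JUN, FOSB and JUNB, with some left out for brevity and 1 result of the AP-1 target list not reported here. Of other genes the text says that they were picked on their values, as were the untested targets it names. No 2 libraries of a group agreed within sampling noise (Poisson dispersion index 4.92 to 12.7). Limits on counts cover counting error only.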

Additional observations from a re-analysis of the deposited data

How the results depend on the processing

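Over 16 alternative fits FOS, FOSB, JUN and JUNB stayed called higher, with log2 fold changes from 1.99 to 2.07, 1.83 to 2.18, 1.40 to 1.60 and 0.53 to 0.76. JUND stayed called in 14 of them. These fits reuse the libraries that chose the family, so they show only how the values depend on the processing. Signs turned with GC and length offsets, without and with the replicate block, in JUND (-0.031 and -0.030), FOSL1 (-0.054 and -0.052), FOSL2 (-0.0055 and -0.0057) and ELK4 (0.018 and 0.019), and in FOSL2 with library-size scaling (-0.0016). Leaving out 1 library, ZFP36L2 ran from -0.014 to 0.19, negative without docetaxel replicate 1, and DET1 from -0.70 to 0.15, positive without docetaxel replicate 3. Genes called higher were 1096 with library-size scaling, 462 with offsets and 319 with offsets and the block, and genes called lower 297 and 208 with offsets without and with the block. Leaving out 1 library gave 990 to 1397 higher and 740 to 1841 lower. Of the related lists together, 17 members were called higher and 12 lower without offsets, beside 9.14% and 7.82% of all tested genes. The number of genes tested is given above for each list. Higher were 6 with offsets and 5 with offsets and block. Lower were 6 with the block, 6 with offsets and 5 with offsets and block. Over all genes 2.81% were called higher and 1.81% lower with offsets. Leaving out 1 library gave 13 to 17 higher and 4 to 14 lower. The summed AP-1 level per kilobase was 259.8 with docetaxel and 170.9 in control with the longest transcript as length, and without 1 library it was 228.9 to 231.5 with docetaxel and 152.1 to 159.0 in control. The cause of these differences was not tested.

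No clear sign of pairing by replicate number was seen. Deviations from the group means of same-numbered libraries correlated at -0.11, -0.13 and 0.07. Docetaxel replicates 1 and 2 each correlated best with another number, and docetaxel replicate 3 with control replicate 3. With 3 libraries per group, these correlations cannot show whether the cultures were paired. With the replicate block 1283 genes were called higher and 1106 lower, and 5 members higher. FOSB, at 73 to 382 reads per library, is the member that depth limits most.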
